A study of Danio rerio with 6 samples.

Results

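The genes described here were 8 zebrafish genes of the MAPK feedback and PEA3 group, chosen by symbol from the 32268 genes counted in the dissociated cells and nuclei. They were dusp6 (ENSDARG00000070914), dusp4 (ENSDARG00000044688), spry2 (ENSDARG00000078308), spry4 (ENSDARG00000068732), il17rd (ENSDARG00000098359), etv4 (ENSDARG00000018303), etv5a (ENSDARG00000069763) and etv5b (ENSDARG00000044511). All 8 symbols were found, each under a single identifier. The rule that chose them used no measured value, but it was set with earlier results of these data known.

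The MAPK cascade carries growth signals from receptors at the cell surface through RAS, RAF, MEK and ERK, and an oncogenic BRAF keeps it active without a receptor. Active ERK induces its own brakes: dusp6 and dusp4 encode phosphatases that remove phosphate from ERK, spry2 and spry4 encode Sprouty proteins that act on the cascade upstream of ERK, and il17rd (Sef) encodes a membrane protein that restrains FGF signaling. The PEA3 genes etv4, etv5a and etv5b encode ETS transcription factors that are classical targets of FGF and ERK signaling in the zebrafish embryo, and all of these genes are widely used as readouts of ERK activity.

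Cells and nuclei came from adult casper zebrafish with melanomas. The fish carried mitfa-BRAFV600E, p53-/- and mitfa-/- and had been injected as embryos with mitfa-MITF and mitfa-GFP, so that the mitfa promoter of the melanocyte lineage drove all 3 transgenes, and no fish without a tumor was measured. In the dissociated cells (scRNA-seq, fish E and F), GFP-positive tumor cells and GFP-negative cells of the surrounding tissue were sorted and mixed in equal numbers, and in the nuclei (snRNA-seq, fish 1, 2 and 3) hashtags in a single pooled library marked the fish and the sort. For the dissociated cells the paper names 2 fish in its methods and 3 in its results. Libraries E and F were each taken here as 1 fish. The groups compared were BRAF-positive and BRAF-negative cells or nuclei (at least 1 UMI, a captured transcript, of the transgene BRAFhuman against 0 UMIs), tumor-like and other classes of cells, and nuclei tagged GFPpos and GFPneg. All groups share the genotype, the transgenes and the tumor-bearing host, since the surrounding tissue of the same animals served as the reference.

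Fish E gave 1780 cells with a median of 16265 UMIs, fish F gave 1002 cells with a median of 8879 UMIs, and the pooled library gave 13121 nuclei with a median of 2122 UMIs, of which 3506, 2781 and 3268 were assigned to fish 1, 2 and 3. Levels are given in CPM, the UMIs of a gene per 1000000 UMIs summed over the cells or nuclei of a group in a fish, and the intervals quoted are exact Poisson or Clopper-Pearson 95% intervals that cover counting error only. The classes rest on clusters made without the listed genes and were named from marker lists that include BRAFhuman and EGFP. BRAF-positive cells had 642 and 550 CPM of EGFP in fish E and F, against 4.91 and 1.597 CPM in BRAF-negative cells. Tumor-like cells made up 1287 of the 1724 BRAF-positive and 65 of the 1058 BRAF-negative cells. BRAF-positive cells were also deeper, with medians of 18213 and 11473 UMIs, against 13136 and 6241 UMIs in BRAF-negative cells.

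BRAF-positive cells had higher levels of the phosphatase, Sprouty and PEA3 genes than BRAF-negative cells in both fish, from 3.78 times for spry2 in fish F to 11.7 times for etv5b in fish F. Of the 7 genes tested, dusp6, spry4 and etv5b passed the edgeR test, and 1.69% of the 12754 genes tested rose in this comparison. Every BRAF-positive sum lay above every BRAF-negative sum for all 7 genes tested, which held for 17.6% of the genes tested. The median log2 fold change was 3.08 over the 7 genes and 0.08 over all genes tested.

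The phosphatase gene dusp6 had 108 and 132 CPM in BRAF-positive cells of fish E and F, against 20.6 and 30.1 CPM in BRAF-negative cells, a log2 fold change of 2.45 (SE 0.45, edgeR adjusted p = 0.0465). dusp4, whose product is a nuclear ERK phosphatase, had 5.75 and 11.8 CPM in BRAF-positive cells, against 0.614 and 1.597 CPM in BRAF-negative cells, where only 5 and 8 UMIs were counted. Its log2 fold change was 3.25 (SE 0.65, edgeR adjusted p = 0.0537) and missed the threshold of 0.05. Both phosphatase genes were separated between the groups in both fish.

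The Sprouty gene spry4 had 131 and 161 CPM in BRAF-positive cells, against 15.4 and 19.8 CPM in BRAF-negative cells, a log2 fold change of 3.23 (SE 0.48, edgeR adjusted p = 0.0378). spry2 had 9.99 and 18.1 CPM in BRAF-positive cells, against 2.58 and 4.79 CPM in BRAF-negative cells, and did not pass (log2 fold change 2.16, SE 0.51, edgeR adjusted p = 0.0724). The Sprouty levels of fish F were above those of fish E in both groups. il17rd was hardly detected in dissociated cells, with 1 and 4 UMIs in BRAF-positive cells of fish E and F and 0 and 8 UMIs in BRAF-negative cells, and was not tested. In the BRAF-negative cells of fish E, which had 0 UMIs of il17rd, a count of 3 UMIs would have been a level of 0.368 CPM.

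Among the PEA3 genes, etv5b had 69.4 and 70.1 CPM in BRAF-positive cells, against 7.001 and 5.99 CPM in BRAF-negative cells, a log2 fold change of 3.53 (SE 0.59, edgeR adjusted p = 0.0396). etv5a had 41.5 and 129 CPM in BRAF-positive cells, against 7.25 and 16.6 CPM in BRAF-negative cells (log2 fold change 3.08, SE 0.62, edgeR adjusted p = 0.0535). etv4 had 22.1 and 35.7 CPM in BRAF-positive cells, against 5.28 and 5.79 CPM in BRAF-negative cells (log2 fold change 2.502, SE 0.52, edgeR adjusted p = 0.0576). The level of etv5b in BRAF-positive cells was nearly equal in both fish, whereas that of etv5a was higher in fish F than in fish E in both groups. Neither etv5a nor etv4 passed the test.

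**Figure D1:**
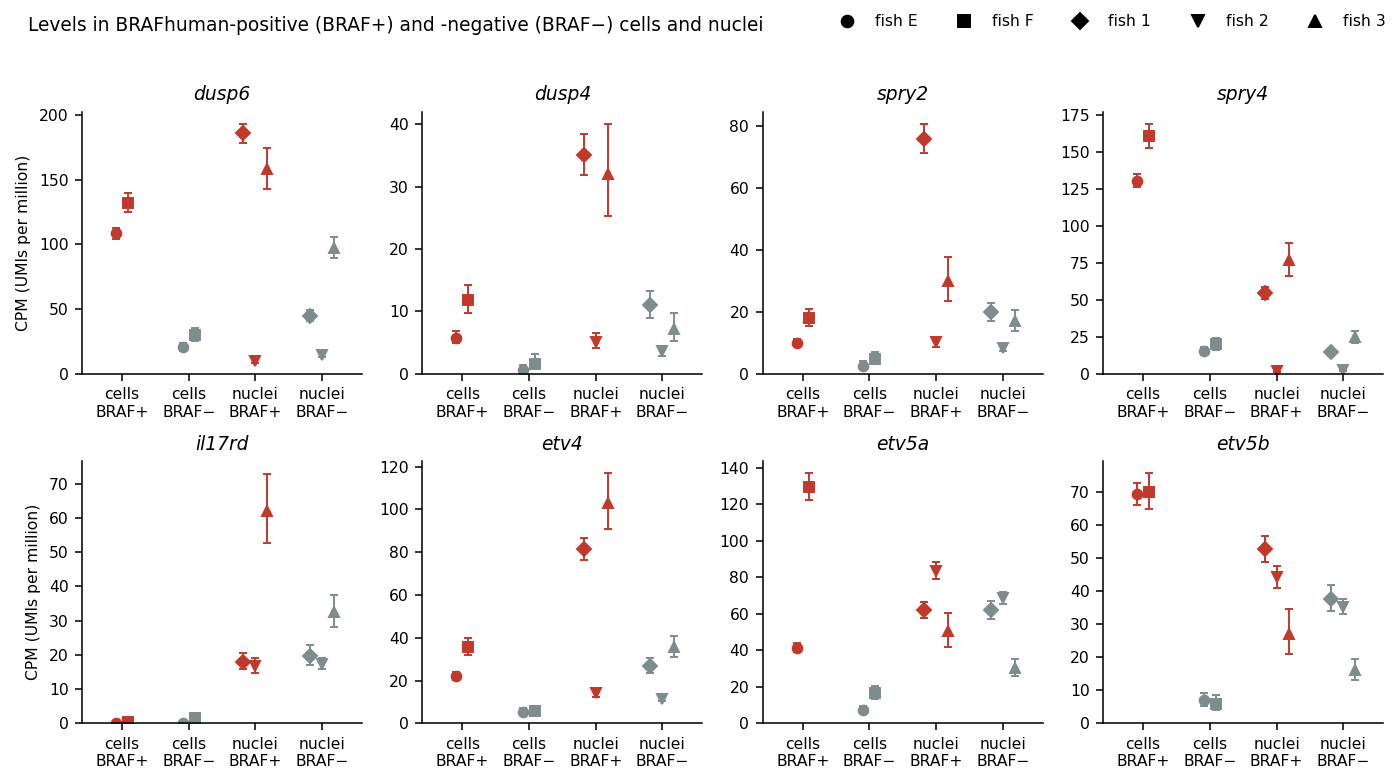
Level of each gene in CPM (y axis, a scale per gene from 0) in BRAF-positive (red) and BRAF-negative (gray) cells of fish E and F and nuclei of fish 1 to 3, each point being a sum over the cells or nuclei of a fish with its exact Poisson 95% interval. For spry4, the BRAF-positive cells sit at 131 and 161 CPM, above the BRAF-negative cells at 15.4 and 19.8 CPM, while both groups of nuclei in fish 2 sit at 1.97 and 2.33 CPM.

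These calls lay close to the threshold and moved with the fit. With the fish as a block, all 7 genes passed (6.05% of all genes rose), with an edgeR adjusted p of 0.0141 for spry4 and etv5b, 0.0183 for etv5a, 0.0192 for dusp6, 0.0216 for dusp4, 0.0313 for etv4 and 0.0449 for spry2. Without erythrocyte-like and germ cell-like cells, spry4 (edgeR adjusted p = 0.0372) and etv5b (0.0393) passed, and dusp6 (0.0518) did not. When any of the 4 sums was left out, none of the 7 genes passed, while the median of their log2 fold changes stayed between 2.48 and 3.26. Of all genes, 0% then rose without either BRAF-positive sum, 0.0795% without the BRAF-negative cells of fish E and 1.04% without those of fish F. The members had edgeR adjusted p values from 0.0648 for etv5a without the BRAF-positive cells of fish E to 0.327 for spry2 without the BRAF-negative cells of fish F.

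Across cell classes, dusp6 and spry4 were high in tumor-like cells, in iridophore-like cells (a reflective pigment cell of fish) and in liver-like cells. In fish E they were also high in a cluster led by prss59.1, which in fish F did not exceed the lower tumor-like sum of either gene. A cluster led by ifitm1 and scpp8 held 6.93% of the dusp6 UMIs and 5.01% of the spry4 UMIs, against 6.49% of all UMIs. BRAFhuman UMIs were found in 63.8% of the cells of this cluster and in 79.8% of the iridophore-like cells. dusp6 and spry4 were low in erythrocyte-, lymphocyte-, macrophage- and neutrophil-like cells. The leading genes of the prss59.1 cluster included the pancreatic protease genes prss59.1, try, ctrb1 and prss59.2 and the germ cell gene ddx4. Its dividing-cell markers were raised as well, and 98.1% and 28.6% of its cells in fish E and F were BRAF-positive. Its tumor markers had a mean log2 ratio of 2.18, within the range of the tumor-like clusters, from 1.903 to 2.6. The markers of the exocrine pancreas (3.76) and of dividing cells (3.59) were higher in it, and it was counted among the other classes. Whether it holds tumor cells was not tested. Liver-like cells were shallow, with a median of 1904 UMIs and of 6.97% mitochondrial UMIs, against 14308.5 UMIs and 0.927% in tumor-like cells, and 42.9% of them were BRAF-positive. spry4 had 147 and 176 CPM in tumor-like cells of fish E and F, against 15.7 and 8.46 CPM in macrophage-like cells, 10.4 and 3.92 CPM in lymphocyte-like cells, 0 and 3.15 CPM in neutrophil-like cells and 1.30 CPM in erythrocyte-like cells of fish E. None of the 16 other sums of at least 20 cells exceeded the lower tumor-like sum of spry4, and the highest of them was 127 CPM in the prss59.1 cluster of fish E. A smaller cluster led by guca2b and epcam, described below, was above both tumor-like sums. The share of all genes with such an order was not computed. dusp6 had 105 and 144 CPM in tumor-like cells, against 23.4 and 29.4 CPM in lymphocyte-like cells, 19.3 and 10.6 CPM in macrophage-like cells, 9.64 and 16.4 CPM in neutrophil-like cells and 2.60 CPM in erythrocyte-like cells of fish E. dusp6 was as high in some other sums of at least 20 cells, with 141 and 147 CPM in liver-like cells, 145 CPM in the prss59.1 cluster of fish E and 114 CPM in the iridophore-like cells of fish E. Pooled over both fish, dusp6 had 236 CPM (interval 165 to 327) in BRAF-positive liver-like cells, against 82.9 CPM (49.9 to 129) in BRAF-negative ones, at median depths of 3349 and 1354 UMIs, and the part of tumor RNA in these levels was not tested.

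Among the PEA3 genes, etv5a and etv5b were also low in blood and immune classes, while etv4 overlapped with some of them. etv5b had 69.4 and 72.9 CPM in tumor-like cells and 105 CPM in the iridophore-like cells of fish E, against 10.4 and 1.96 CPM in lymphocyte-like cells, 5.53 and 1.41 CPM in macrophage-like cells and 0 and 4.41 CPM in neutrophil-like cells. etv5a had 45.6 and 140 CPM in tumor-like cells, against 12.9 and 16.2 CPM in macrophage-like cells, and in fish F the tumor-like value was above all 16 other sums, whose highest was 56.6 CPM. etv4 had 19.6 and 35.9 CPM in tumor-like cells, against 22.6 and 44.1 CPM in liver-like cells and 8.29 and 18.3 CPM in macrophage-like cells, and 6 of the 16 other sums exceeded its lower tumor-like sum.

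The genes with fewer UMIs had their highest sums elsewhere. dusp4 had 6.26 and 12.1 CPM in tumor-like cells and 16.9 and 29.4 CPM in liver-like cells, where only 3 and 6 UMIs were counted. spry2 had 10.98 and 18.9 CPM in tumor-like cells, against 13.01 and 27.5 CPM in lymphocyte-like cells, 4.45 and 1.89 CPM in neutrophil-like cells and 1.84 and 0 CPM in macrophage-like cells, so that tumor-like and lymphocyte-like cells overlapped. A small epithelial cluster led by epcam (14 and 19 cells), in which no cell had a BRAFhuman UMI, also carried these transcripts, with 122 and 132 CPM of dusp6, 291 and 223 CPM of spry4 and 56.3 and 66.1 CPM of etv5b. Its spry4 levels were above those of tumor-like cells, at 147 and 176 CPM. This cluster was too small to be tested.

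Tumor-like cells held 76.9% of the spry4 UMIs, 67.8% of the dusp6 UMIs, 75.6% of the dusp4 UMIs, 72.1% of the spry2 UMIs, 64.1% of the etv4 UMIs, 79.4% of the etv5a UMIs and 69.9% of the etv5b UMIs, while they held 51.6% of all UMIs. With each cell thinned to 5000 UMIs, 47.6% and 55.4% of the tumor-like cells of fish E and F had a UMI of spry4, against 0.422% of the erythrocyte-like cells of fish E. Before thinning these shares of spry4 were 75.0% and 70.7%, at median depths of 16125.5 and 10425 UMIs, against 1.498%, at 16862 UMIs. On average 1.45 and 2.15 of the 8 genes were detected per thinned tumor-like cell of fish E and F, against 0.103 and 0.125 per neutrophil-like cell and 0.0338 per erythrocyte-like cell of fish E. Other classes of fish E were as high, with 1.53 per iridophore-like cell, 1.46 per cell of the scpp8 cluster and 1.34 per cell of the prss59.1 cluster. At least 3 of the 8 genes were found in 16.4% and 37.9% of thinned tumor-like cells and no neutrophil-like cell, of 68 and 104, had more than 2. In fish E this share was 16.7% in iridophore-like cells, 15.2% in the prss59.1 cluster and 13.3% in the scpp8 cluster.

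**Figure D2:**
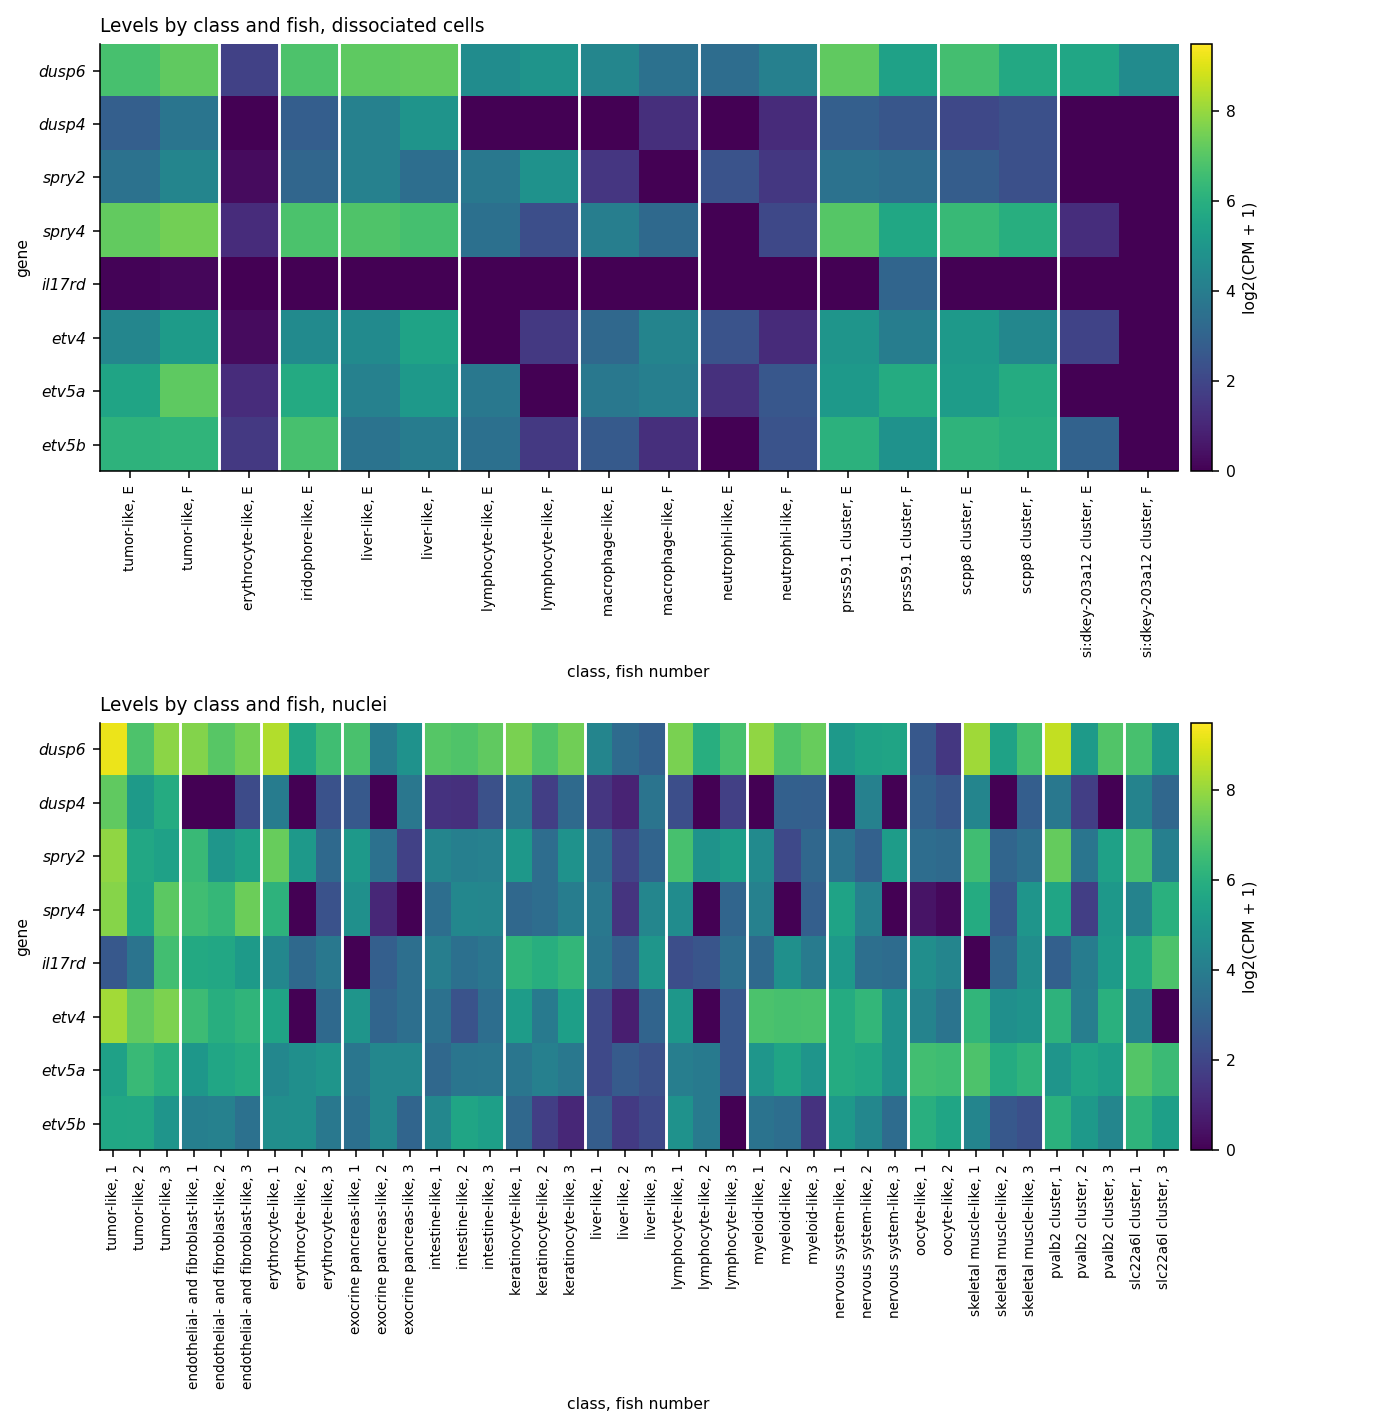
Level of each gene (rows) as log2(CPM + 1) (color) in each class and fish with at least 20 cells or nuclei (columns, fish E and F written as E and F, nuclei of fish 1 to 3 as 1 to 3), with the tumor-like class at the left. In cells, spry4 is brightest in the tumor-like columns (147 and 176 CPM), and in nuclei etv5a is bright in the oocyte-like columns (97.4 and 93.8 CPM) while spry4 is dark there.

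Tested against the mean of the 9 other classes, all 7 genes rose in tumor-like cells, where 8.24% of the 12519 genes tested rose. The log2 fold changes were 3.82 for etv5a (SE 0.57, edgeR adjusted p = 0.00158), 3.68 for spry4 (SE 0.52, 0.00104), 3.65 for dusp4 (SE 0.81, 0.0135), 2.84 for etv5b (SE 0.60, 0.00763), 2.71 for spry2 (SE 0.60, 0.0123), 2.31 for etv4 (SE 0.53, 0.0134) and 1.97 for dusp6 (SE 0.50, 0.0216). Their median was 2.84, against 0.47 over all genes tested, so the fit placed the middle of all genes above 0, whereas DESeq2's size factors placed it near 0 and called 6 of the 7 genes, all but dusp4 (DESeq2 adjusted p = 0.0686). It also gave 487 genes higher and 383 lower, against 1032 and 40 in the edgeR fit.

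Against single classes, tumor-like cells were higher for 5 genes against macrophage-like cells (3.45% of all genes rose), 5 against neutrophil-like cells (6.19%), 4 against lymphocyte-like cells (3.37%), 4 against erythrocyte-like cells (2.88%) and 3 against a cluster led by si:dkey-203a12.8 (3.53%). None was called against iridophore-like cells (0% of all genes rose), liver-like cells (0.16%), the prss59.1 cluster (0%) or a cluster led by ifitm1 and scpp8 in which 7 of 8 neutrophil markers were raised (0%), so that the members' counts equal the share over all genes there or nearly so. The median log2 fold changes of the 7 genes against these 4 were 0.69, 0.47, 1.23 and 0.94, against medians over all genes of 0.58, 0.70, 0.18 and 0.28. By edgeR, 407, 1805, 1172 and 776 of all genes had an unadjusted p under 0.05 in these 4 comparisons. BRAF-positive cells made up 63.8% of the cluster led by ifitm1 and scpp8, against 8.21% and 2.38% of the neutrophil-like clusters.

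The call for all 7 genes depended on the tumor-like cells of fish F and on the clusters. Without the tumor-like sum of fish F, which leaves a single tumor-like sum whose spread is taken from the other classes, only spry4 passed (edgeR adjusted p = 0.0344), where 0.79% of all genes rose, and the median log2 fold change of the 7 genes was 2.85. With the clustering at a resolution of 0.4 or 1.6 in place of 0.8, spry4 and etv5a alone passed, where 2.77% and 1.93% of all genes rose, with log2 fold changes from 2.56 to 2.65 for these 2 genes and positive values for the other 5 genes.

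**Figure D3:**
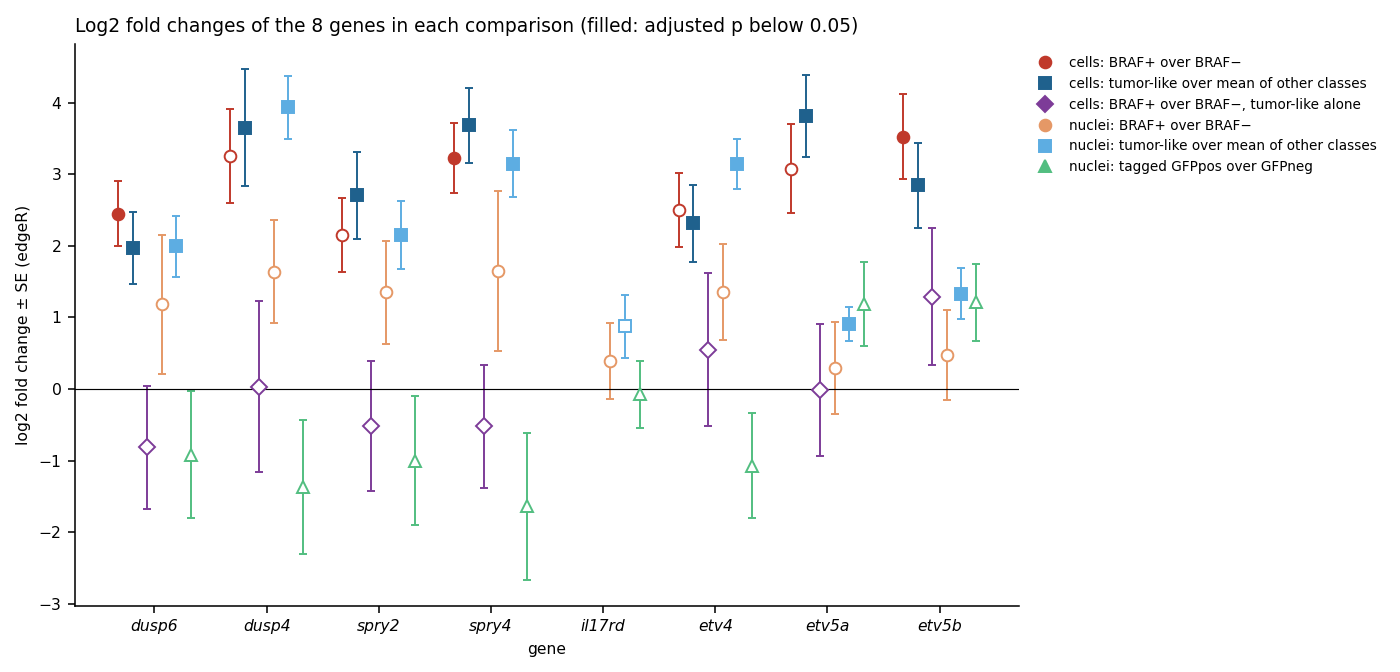
Log2 fold change (y axis, ± SE, edgeR) of each gene in 6 comparisons, with filled points where the adjusted p was below 0.05. In tumor-like against other classes all 7 tested genes are filled in cells and 7 of 8 in nuclei (il17rd at 0.88 is open), whereas the points within tumor-like cells alone lie on both sides of 0.

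Within the tumor-like class, the level of these genes was not seen to follow the transgene. Only 38 and 27 tumor-like cells of fish E and F had no BRAFhuman UMI, and they were shallow, with medians of 4639.5 and 2247 UMIs. dusp6 had 104 and 141 CPM in BRAF-positive tumor-like cells, against 119 and 476 CPM in BRAF-negative ones (log2 fold change -0.81, SE 0.86, edgeR adjusted p = 1). spry4 had 147 and 172 CPM in BRAF-positive tumor-like cells, against 132 and 500 CPM in BRAF-negative ones (log2 fold change -0.52, SE 0.85, edgeR adjusted p = 1). etv5b had 70.0 and 73.6 CPM in BRAF-positive tumor-like cells, against 40.7 and 12.2 CPM in BRAF-negative ones, where 13 and 1 UMIs were counted (log2 fold change 1.29, SE 0.95, edgeR adjusted p = 1). For etv5b the BRAF-positive sums lay above the BRAF-negative ones, as for 24.6% of all genes tested. For spry2 they lay below them, as for 10.1% of all genes, at 10.8 and 18.9 CPM in BRAF-positive tumor-like cells, against 21.9 and 24.4 CPM in BRAF-negative ones, where 7 and 2 UMIs were counted. dusp6 was lower in BRAF-positive cells within both fish with overlapping groups, and for spry4 the order differed between the fish. By edgeR and by DESeq2, 0 of the 7 genes were called (in edgeR 0% of 9009 genes rose and 0.0111% fell, and 256 had an unadjusted p under 0.05). With SEs of 0.85 to 1.19 on the log2 scale, sizeable differences could not have been seen.

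Sorted by the number of BRAFhuman UMIs after thinning to 5000 UMIs, tumor-like cells showed little change in dusp6 detection. In fish E the share with a dusp6 UMI was 38.9% (interval 23.1% to 56.5%) in the 36 cells with no BRAFhuman UMI, and 31.2%, 32.3%, 30.1% and 32.7% in those with 1 to 2, 3 to 5, 6 to 10 and more than 10. In fish F the dusp6 shares in the same order were 40.0% (16.3% to 67.7%), 48.5%, 49.1%, 40.9% and 44.4%. For spry4 the shares were 41.7%, 37.6%, 50.0%, 48.3% and 54.2% in fish E, and 53.3%, 60.6%, 58.8%, 53.0% and 46.7% in fish F, so their order differed between the fish. etv5a in fish F was detected in 73.3%, 53.0%, 50.0%, 50.0% and 37.8% of these cells, with intervals from 44.9% to 92.2% and from 23.8% to 53.5% at the ends, while in fish E its shares were between 16.7% and 27.2% in no order.

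**Figure D4:**
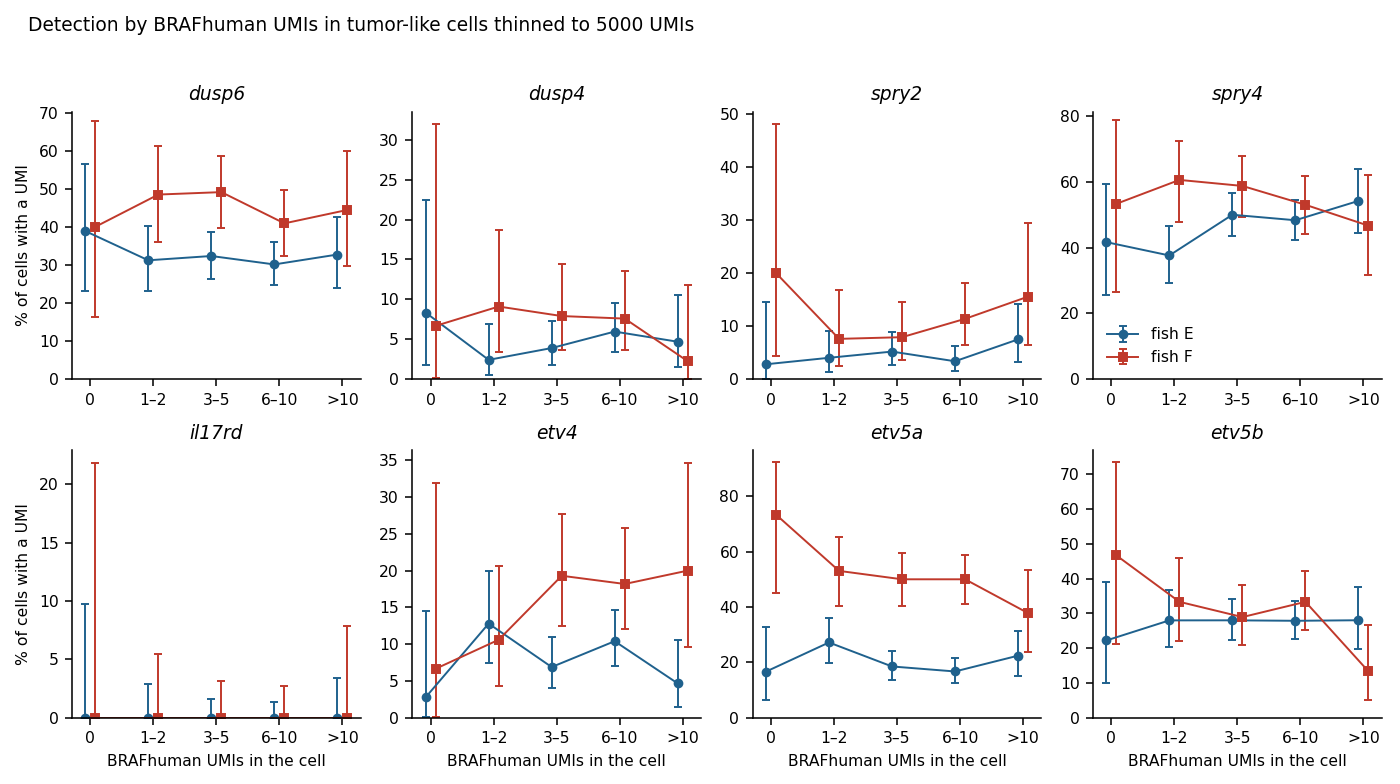
Share of thinned tumor-like cells with a UMI of each gene (y axis, percent, with exact Clopper-Pearson 95% intervals) by the number of BRAFhuman UMIs in the cell (x axis) in fish E (blue) and fish F (red). The dusp6 lines stay between 30.1% and 38.9% in fish E and between 40.0% and 49.1% in fish F.

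Single tumor-like cells gave only weak rank correlations between the genes. Over 769 thinned cells of fish E, Spearman's rho between pairs of the 7 genes ran between -0.02 and 0.12, and over 372 cells of fish F between -0.05 and 0.14. These cells share a library and most hold no UMI or a single UMI of each gene, and no pattern is read from these values.

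The tumor-like class was not uniform, and a cluster of 162 tumor-like cells led by jun, fosab, egr1 and fosb stood out for the feedback genes. Clusters were drawn on these same cells, so the values are a description with no test. dusp6 had 295 and 283 CPM in this cluster in fish E and F, against 86.8 to 131 CPM in the 4 other tumor-like clusters of fish E and 35.4 to 164 CPM in those of fish F. spry4 had 348 and 263 CPM there, against 100 to 166 CPM and 62.9 to 216 CPM in the other clusters. spry2 had 34.7 and 28.7 CPM, etv5a had 99.1 and 191 CPM and etv5b had 115 and 95.98 CPM there, all above the other tumor-like clusters of the same fish. dusp4, at 15.3 and 15.8 CPM, was above them in fish E alone, since another cluster reached 18.7 CPM in fish F. etv4, at 25.5 and 31.7 CPM, was not raised in this cluster and was highest in a shallow cluster with a median of 4146 UMIs, at 38.7 and 53.8 CPM. The immediate early genes that lead this cluster are also known to be induced when tissue is dissociated, and the part of dissociation in these levels was not tested.

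**Figure D5:**
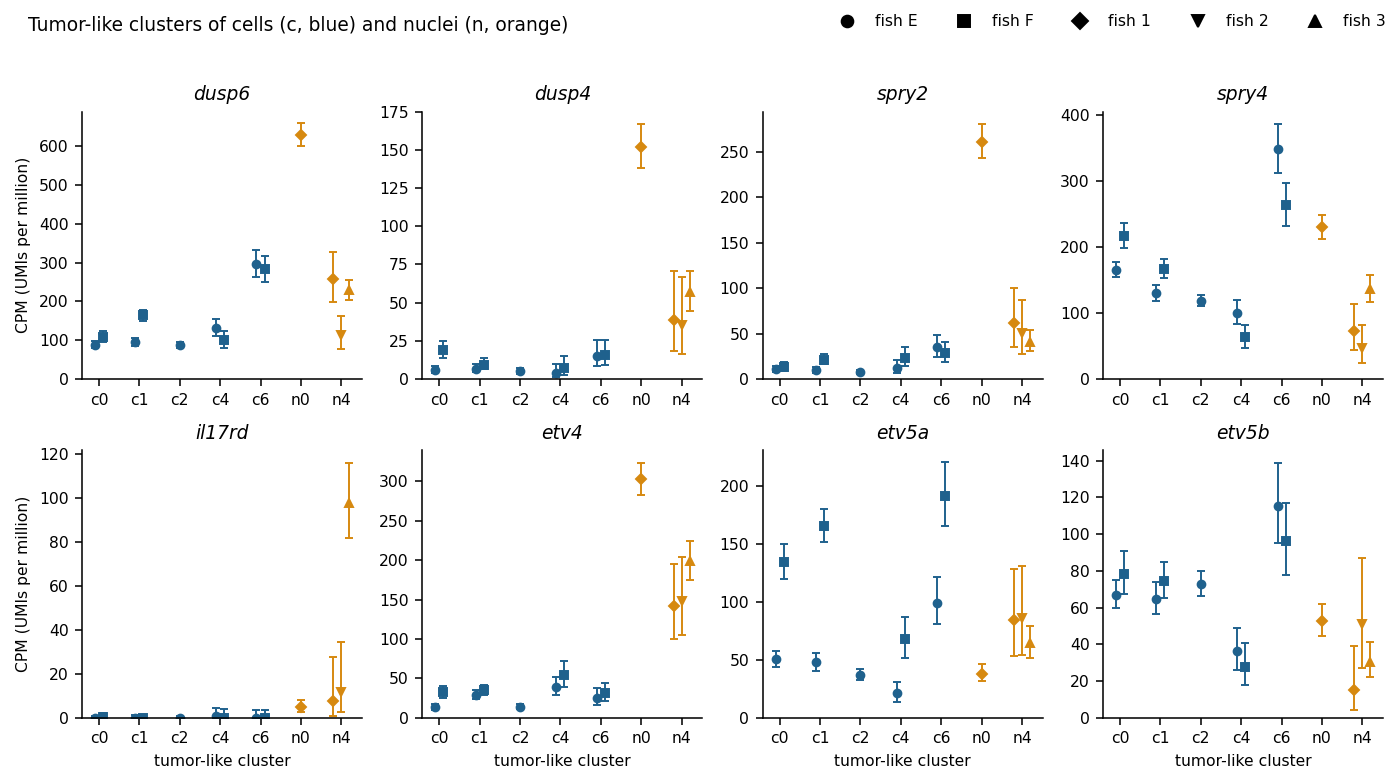
Level of each gene in CPM (y axis, a scale per gene from 0, exact Poisson 95% intervals) in the tumor-like clusters of cells (c, blue) and nuclei (n, orange) with at least 20 cells or nuclei of a fish. In cells, dusp6 is highest in cluster c6 (295 and 283 CPM in fish E and F), and in nuclei in cluster n0, which holds 1113 nuclei of fish 1 and 2 of fish 3 (630 CPM in fish 1).

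In the nuclei, the hashtags of the sort did not follow the transgenes in a single direction, which limits what they can be used for. EGFP had 69.1, 3.39 and 45.8 CPM in nuclei tagged GFPpos of fish 1, 2 and 3, against 216, 12.2 and 61.0 CPM in nuclei tagged GFPneg. Tumor-like nuclei made up 25.4%, 1.53% and 11.5% of the nuclei tagged GFPpos, against 46.7%, 3.86% and 14.8% of those tagged GFPneg. Within tumor-like nuclei alone, EGFP had 532, 430 and 193 CPM in those tagged GFPpos, against 382, 190 and 244 CPM in those tagged GFPneg. BRAF-positive nuclei made up 50.5%, 20.1% and 30.0% of the nuclei tagged GFPpos, at median depths of 3203.5, 7167 and 2658.5 UMIs, against 52.8%, 12.8% and 19.8% of those tagged GFPneg, at 1751.5, 1726 and 1647 UMIs. The fish also differed in their tumor-like nuclei. A cluster with 1113 nuclei of fish 1 and 2 of fish 3, led by b4galt2, neto1l, ntng2a and gabra3 with 11 of 12 tumor markers raised, held most tumor-like nuclei of fish 1, while another cluster held 127, 74 and 453 nuclei of fish 1, 2 and 3. Of the leading genes of the cluster filled mainly by fish 1, neto1l, ntng2a, gabra3 and grid1a are also known from neurons, and its second highest marker list was that of the nervous system, with a mean log2 ratio of 1.48, against 2.64 for the tumor markers. Oocyte-like nuclei were deep, with a median of 55529.5 UMIs, and held 60.6% of all UMIs of the library.

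Tumor-like nuclei again had raised feedback and PEA3 genes, and 7 of the 8 genes rose against the mean of the other classes, where 21.6% of the 15138 genes tested rose. Their median log2 fold change was 2.07, against 0.12 over all genes tested. Also with the fish as a block, with DESeq2 and at both other resolutions of the clustering, 7 of the 8 genes were called. Over all genes, 2496 rose with DESeq2, against 3271 in the main fit. The alternatives with all sums kept called 3255 to 5749 genes in either direction, against 4317. Against single classes, 7 genes were higher in tumor-like nuclei than in liver-like nuclei (17.7% of all genes rose), 6 than in keratinocyte-like (11.3%) and lymphocyte-like nuclei (10.6%), 5 than in intestine-like (16.4%) and nervous system-like nuclei (6.78%) and 4 than in myeloid-like (10.6%) and exocrine pancreas-like nuclei (19.8%). The calls were fewer against skeletal muscle-like nuclei (3 genes, 11.7%), erythrocyte-like nuclei (3, 10.3%), a cluster led by pvalb2 and pvalb1 (3, 21.9%), endothelial- and fibroblast-like nuclei (1, 6.39%) and a cluster led by slc13a3 and slc22a6l (1, 6.59%).

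Among the feedback genes, dusp4 had 142, 35.3 and 56.2 CPM in tumor-like nuclei of fish 1, 2 and 3, and none of the 37 other sums of at least 20 nuclei exceeded 18.8 CPM (log2 fold change 3.94, SE 0.44, edgeR adjusted p = 1.81e-09). The share of all genes separated in this way was not computed. spry4 had 217, 47.0 and 138 CPM in tumor-like nuclei (log2 fold change 3.15, SE 0.46, edgeR adjusted p = 7.07e-07), while endothelial- and fibroblast-like nuclei had 96.1, 78.3 and 165 CPM and overlapped with them. dusp6 had 599, 114 and 227 CPM in tumor-like nuclei (log2 fold change 1.99, SE 0.43, edgeR adjusted p = 3.06e-04), against 193, 118 and 171 CPM in keratinocyte-like nuclei and 19.2, 9.11 and 6.54 CPM in liver-like nuclei. spry2 had 245, 50.9 and 42.2 CPM in tumor-like nuclei (log2 fold change 2.15, SE 0.47, edgeR adjusted p = 4.19e-04). In fish 2, dusp6 in tumor-like nuclei did not exceed that in keratinocyte-like nuclei.

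The calls of dusp6, spry2 and etv5b were lost without the tumor-like sum of fish 1. dusp6 then had a log2 fold change of 0.98 (edgeR adjusted p = 0.204), spry2 of 0.61 (0.609) and etv5b, which was as high in fish 2 as in fish 1, of 1.02 (0.12). dusp6 was also higher in some other classes of fish 1 than of fish 2 and 3, with 394, 35.5 and 120 CPM in the pvalb2 cluster and 337, 51.5 and 94.7 CPM in erythrocyte-like nuclei. BRAFhuman was likewise highest in fish 1 there, with 1478, 132 and 544 CPM in the pvalb2 cluster and 860, 129 and 94.7 CPM in erythrocyte-like nuclei, and the part of tumor RNA in the dusp6 levels of these classes was not tested.

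Within fish 1, the cluster filled mainly by this fish had more of the feedback genes and etv4 than the other tumor-like cluster, again as a description. It had 630 CPM of dusp6 against 257 CPM, 152 CPM of dusp4 against 38.4 CPM, 261 CPM of spry2 against 61.4 CPM, 230 CPM of spry4 against 72.9 CPM and 303 CPM of etv4 against 142 CPM. etv5a went the other way, with 38.1 CPM in that cluster and 84.4 CPM in the other. Compared within the shared cluster, dusp6 had 257, 114 and 228 CPM, spry4 had 72.9, 47.0 and 137 CPM and etv4 had 142, 149 and 198 CPM in fish 1, 2 and 3, so that fish 1 no longer stood above fish 3 for spry4 and etv4.

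il17rd, which dissociated cells hardly showed, was measurable in nuclei and did not pass in tumor-like nuclei (log2 fold change 0.88, SE 0.44, edgeR adjusted p = 0.141). It had 5.13, 11.8 and 96.9 CPM in tumor-like nuclei of fish 1, 2 and 3, so that fish 3 stood apart from the other fish. Without the tumor-like sum of fish 3 it was called lower (log2 fold change -1.72, edgeR adjusted p = 0.0456), and without that of fish 1 it was called higher (1.42, 0.0138). Outside the tumor-like class il17rd was steady across fish in keratinocyte-like nuclei, at 73.8, 61.5 and 77.6 CPM, and in oocyte-like nuclei, at 24.9, 18.97 and 29.6 CPM. The highest other sum of il17rd was 113 CPM, in the slc22a6l cluster of fish 3.

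Of the PEA3 genes, etv4 alone had every tumor-like sum above all other sums, with 289, 149 and 198 CPM in fish 1, 2 and 3 (log2 fold change 3.14, SE 0.35, edgeR adjusted p = 1.81e-09). None of the 37 other sums of etv4 reached these values, and the highest were those of myeloid-like nuclei, at 113, 106 and 108 CPM. How large a share of all genes was separated in this way was not computed. etv5a had 42.0, 86.2 and 64.4 CPM in tumor-like nuclei (log2 fold change 0.91, SE 0.24, edgeR adjusted p = 0.00331), and etv5b had 49.7, 50.9 and 30.3 CPM (log2 fold change 1.33, SE 0.36, edgeR adjusted p = 0.00343). Without the tumor-like sum of fish 3, etv5a did not pass (0.79, edgeR adjusted p = 0.075), nor did it with nuclei of at least 1000 UMIs (edgeR adjusted p = 0.0573).

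Oocyte-like nuclei separated etv5a and etv5b from the rest. etv5a had 97.4, 93.8 and 93.8 CPM and etv5b had 63.3, 46.8 and 55.5 CPM in oocyte-like nuclei of fish 1, 2 and 3. The test that follows used the oocyte-like sums of fish 1 and 2 alone, since fish 3 had fewer than 20 oocyte-like nuclei. Tumor-like nuclei were lower than oocyte-like nuclei for etv5a (log2 fold change -1.73, SE 0.36, edgeR adjusted p = 5.67e-05) and etv5b (-1.39, SE 0.53, edgeR adjusted p = 0.0178), where 35.6% of all genes fell. For 5 other genes they were higher, where 37.9% of all genes rose, and spry4 was nearly absent from oocyte-like nuclei, at 0.421, 0.166 and 0 CPM. Oocyte-like nuclei held 85.7% of the etv5a UMIs, 80.3% of the etv5b UMIs and 2.099% of the spry4 UMIs of the library, against 60.6% of all UMIs. Tumor-like nuclei held 4.79%, 6.71% and 65.1% in the same order, against 5.88% of all UMIs. Oocyte-like nuclei were not the highest for etv5a and etv5b. Among sums of at least 20 nuclei outside the tumor-like class, the slc22a6l cluster of fish 1 was highest, at 125 and 71.2 CPM. The fit also scales the sums by their composition, and by CPM etv5a and etv5b differed less in every fish than their log2 fold changes state. Tumor-like nuclei had 42.0 to 86.2 CPM of etv5a and 30.3 to 50.9 CPM of etv5b. By CPM, unlike in the fit, etv5b was slightly higher in tumor-like than in oocyte-like nuclei of fish 2.

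Compared by the transgene alone, none of the 8 genes was called in nuclei. Of 19194 genes tested with edgeR, 0 passed in either direction (0% rose, with 281 at an unadjusted p under 0.05), DESeq2 called 0, and the median log2 fold change was 1.27 over the 8 genes and 0.11 over all genes. dusp4 had 35.0, 5.15 and 32.1 CPM in BRAF-positive nuclei of fish 1, 2 and 3, against 10.96, 3.57 and 7.22 CPM in BRAF-negative nuclei (log2 fold change 1.64, SE 0.72, edgeR adjusted p = 1). etv4 had 81.4, 14.1 and 103 CPM in BRAF-positive nuclei, against 26.8, 11.5 and 35.8 CPM in BRAF-negative nuclei (1.36, SE 0.67). No gene of the 8 had all its BRAF-positive sums above all its BRAF-negative sums, which 1.78% of all genes had. Both genes were higher in BRAF-positive nuclei within each fish, as were spry2, etv5a and etv5b, which makes 5 of the 8 genes where 17.5% of the genes tested were higher within every fish. With the fish as a block, 0.792% of all genes rose and 2.55% fell, while none of the 8 passed and dusp4 (edgeR adjusted p = 0.0522) and etv4 (0.0579) came nearest to the threshold.

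For the remaining genes the order differed between the fish. dusp6 had 186, 9.56 and 158 CPM in BRAF-positive nuclei of fish 1, 2 and 3, against 44.9, 14.5 and 97.3 CPM in BRAF-negative nuclei. spry4 had 54.7, 1.97 and 76.9 CPM in BRAF-positive nuclei, against 14.4, 2.33 and 24.8 CPM in BRAF-negative nuclei. il17rd had 17.96, 16.7 and 62.1 CPM in BRAF-positive nuclei, against 19.7, 17.4 and 32.5 CPM in BRAF-negative nuclei. In fish 2 all 3 genes were lower in BRAF-positive nuclei, as il17rd was in fish 1, and only 45 of its 460 BRAF-positive nuclei were tumor-like. Leaving out erythrocyte-like and oocyte-like nuclei gave a median log2 fold change of 1.42 over the 8 genes, again with 0 calls.

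BRAFhuman was also found in nuclei of other classes, and in liver-like and exocrine pancreas-like nuclei dusp6 was higher where it was found. Pooled over the library, liver-like nuclei had 33.3 CPM of dusp6 (27.3 to 40.3) in 506 BRAF-positive nuclei, against 8.17 CPM (6.50 to 10.1) in 2286 BRAF-negative nuclei. Exocrine pancreas-like nuclei had 124 CPM of dusp6 (102 to 149) in 106 BRAF-positive nuclei, against 22.1 CPM (16.2 to 29.4) in 311 BRAF-negative nuclei. These pooled values mix the fish and include untagged nuclei, so differences between fish cannot be told apart from those by BRAFhuman. Values by fish are not given here for exocrine pancreas-like nuclei. In liver-like nuclei the dusp6 difference was largest in fish 1, at 48.8 against 6.83 CPM, with 16.7 against 7.67 CPM in fish 2 and 9.26 against 5.96 CPM in fish 3. The BRAF-positive nuclei were the deeper ones, with medians of 3429 against 2823 UMIs and 5312 against 3610 UMIs. Keratinocyte-like nuclei differed less, with 185 CPM of dusp6 (147 to 229) in BRAF-positive and 164 CPM (146 to 183) in BRAF-negative nuclei. The part of tumor RNA in these differences was not tested.

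Within tumor-like nuclei, the BRAF-positive and BRAF-negative groups overlapped, in a comparison added after the data had been seen. dusp6 had 610, 128 and 240 CPM in BRAF-positive tumor-like nuclei of fish 1, 2 and 3, against 500, 67.1 and 172 CPM in BRAF-negative ones (log2 fold change 0.43, SE 0.82, edgeR adjusted p = 1). etv4 had 284, 153 and 182 CPM in BRAF-positive tumor-like nuclei, against 342, 134 and 265 CPM in BRAF-negative ones (-0.23, SE 0.50, edgeR adjusted p = 1). None of the 7 genes tested was called, nor was any of the 4821 genes (0% rose, with 114 at an unadjusted p under 0.05), and DESeq2 called 1 gene, which fell and was none of the 7.

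By the tag of the sort, nuclei tagged GFPpos had lower levels of most feedback genes than nuclei tagged GFPneg, without a call. dusp6 had 86.3, 8.97 and 99.5 CPM in nuclei tagged GFPpos of fish 1, 2 and 3, against 348, 52.1 and 124 CPM in nuclei tagged GFPneg (log2 fold change -0.91, SE 0.89, edgeR adjusted p = 0.441). Within tumor-like nuclei dusp6 was no lower in those tagged GFPpos, at 609, 143 and 247 CPM, against 590, 87.8 and 219.7 CPM in those tagged GFPneg. spry4 had 20.8, 1.14 and 21.97 CPM in nuclei tagged GFPpos, against 131, 13.3 and 50.7 CPM in nuclei tagged GFPneg (-1.64, SE 1.03, edgeR adjusted p = 0.256). The fit also scales the sums by their composition, so the log2 fold changes by tag differ from the ratios of CPM. Within tumor-like nuclei spry4 had 183, 16.9 and 77.7 CPM in those tagged GFPpos, against 246, 73.1 and 161 CPM. In fish 2 these levels rest on 2 and 10 UMIs. Over all nuclei, spry4 was lower in every fish and, when the fish entered as a block, it was just past the threshold (-1.85, edgeR adjusted p = 0.04998, where 7.41% of all genes fell). This order is also that of EGFP and of the tumor-like nuclei. Nuclei tagged GFPpos of fish 1, 2 and 3 held 18893336, 37777228 and 3277040 UMIs, against 3418365, 3609664 and 5247996 in those tagged GFPneg. Oocyte-like nuclei held 11864493, 30198928 and 810488 UMIs, in fish 1 and 2 more than all nuclei tagged GFPneg. The part of oocyte RNA in the levels by tag, EGFP included, was not tested. edgeR called 0 of 17508 genes (0% fell, with 5410 at an unadjusted p under 0.05), while DESeq2 called 2448 genes higher and 1105 lower, none of the 8 among them.

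etv5a had 67.4, 76.4 and 28.4 CPM in nuclei tagged GFPpos, against 32.2, 49.0 and 41.0 CPM in nuclei tagged GFPneg (log2 fold change 1.19, SE 0.58, edgeR adjusted p = 0.179). etv5b had 48.5, 39.8 and 21.97 CPM in nuclei tagged GFPpos, against 34.5, 23.8 and 17.5 CPM in nuclei tagged GFPneg (1.21, SE 0.54, edgeR adjusted p = 0.163). Among the alternatives run, both passed only when the nuclei tagged GFPpos of fish 3 were left out (1.95, edgeR adjusted p = 0.0034, for etv5a and 1.87, 0.00582, for etv5b), a setting in which 35.5% of all genes rose. Fish 3 is the fish with 16 oocyte-like nuclei, against 132 and 327 in fish 1 and 2.

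The lists of other pathway genes gave mixed counts in tumor-like cells, where 8.24% of all genes rose. The counts of the cascade, ETS and FGF genes were near or below that share. Of 18 other feedback inhibitors, 12 were tested in the comparison of classes of cells and 4 rose, among them dusp2, a phosphatase of ERK (log2 fold change 3.31, edgeR adjusted p = 0.00199), spred2a (3.49, 0.0436) and spred1 (2.45, 0.00908), which encode Sprouty-related inhibitors of RAS signaling. The immediate early genes and other ERK-responsive genes rose in 12 of 18 tests, of which fosab takes up 2 through its 2 identifiers, led by the transcription factor genes fosb (4.53, edgeR adjusted p = 0.00543), fosab (4.44, 0.0153) and egr1 (4.30, 0.0023). Of the cascade itself, map2k1, which encodes the kinase MEK1, rose (3.99, edgeR adjusted p = 0.00926) as 1 of 13 genes tested, and of the receptor tyrosine kinases kita (4.30, 0.0315) and igf1rb (3.01, 0.0182) rose among 4 tested. None of 12 other ETS factor genes rose and fli1b, an endothelial and blood factor, fell (-3.00, edgeR adjusted p = 0.0313, where 0.32% of all genes fell), and none of 4 FGF ligand and receptor genes was called.

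In tumor-like nuclei, where 21.6% of all genes rose, the same lists gave 6 of 13 other feedback inhibitors higher, led by nf1b (log2 fold change 3.12, edgeR adjusted p = 3.61e-13), spred2b (2.51, 1.66e-11) and spred2a (2.02, 3.15e-06), while dusp1 fell (-1.33, 7.36e-04, where 6.91% of all genes fell). Of 12 FGF ligand and receptor genes, 5 rose, among them fgfr4 (3.33, edgeR adjusted p = 3.84e-08), fgfr1b (2.29, 0.00118) and fgfrl1a (1.57, 4.92e-04), and fgfr2 fell (-2.02, 9.14e-04). Of 10 receptor tyrosine kinase genes, 4 rose, led by kita (4.58, edgeR adjusted p = 2.21e-15), the receptor of the pigment cell lineage, igf1ra (2.96, 3.91e-11) and pdgfra (1.71, 4.95e-04), and mst1ra (-2.48, 0.00204) and erbb3b (-2.30, 0.00969) fell. Of 18 ERK-responsive genes, 5 rose, among them phlda1 (3.46, edgeR adjusted p = 1.26e-09), epha4b (2.77, 3.11e-06) and the cyclin gene ccnd1 (1.45, 3.82e-04). Of 15 genes of the cascade, map2k1 (1.73, edgeR adjusted p = 0.0185) and araf (1.00, 0.0114) rose and rps6ka3a fell (-0.76, 0.0386), and of 15 other ETS factor genes 3 rose, led by elk3 (1.63, 6.22e-05), and 2 fell, among them ets2 (-1.76, 0.00737). The counts of the ERK-responsive, cascade and ETS genes are near or below the share over all genes.

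In BRAF-positive against BRAF-negative cells, where 1.69% of all genes rose, the only call among the ERK-responsive genes was phlda1 (log2 fold change 4.02, edgeR adjusted p = 0.0406), 1 of 17 tested. 4 of 13 other ETS factor genes were called, all lower (2.90% of all genes fell): fli1b (-4.68, edgeR adjusted p = 0.0479), fli1a (-4.54, 0.0378), spi1a (-3.83, 0.0378) and spi1b, of which spi1a and spi1b are factors of the myeloid lineage. None of the 12 other feedback inhibitors, 13 cascade genes, 3 FGF genes and 4 receptor tyrosine kinase genes was called there.

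Genes whose levels most resembled those of each gene except il17rd were sought over 18 sums of classes and fish in dissociated cells. For spry4 they included tfap2e and sox10, transcription factor genes of the neural crest and pigment lineage. sox10 and EGFP also belong to the marker list that named the tumor-like class. By Pearson's r of log2(CPM + 1), among 8050 genes, spry4 was nearest to tfap2e (0.98) and sox10 (0.98), and etv5b to cdkn1ca (0.96), relt (0.95) and the transgene EGFP (0.94). etv5a was nearest to smad1 (0.97), snai1a (0.96) and cyr61 (0.94), and dusp4 to TENM2 (0.93), arhgef33 (0.93) and tbx2b (0.93). The nearest genes were adh8b for etv4 (0.91), sh3d21 for spry2 (0.92) and rabl6b for dusp6 (0.90). The sums share libraries and differ in depth, so these values are a description.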

How the data were processed

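UMI counts per gene were deposited by the authors as 10x matrices for 2 libraries of dissociated cells and 1 library of nuclei, and the submitters' processing notes name Cell Ranger 3.1.0 and 5.0.1, Space Ranger 1.0.0 and GRCz10. Spatial slices and other files were not used here. The genes and all lists were chosen with earlier results of these data known. Barcodes under 200 detected genes or above 20% mitochondrial UMIs were dropped, as were nuclei under 500 UMIs. A hashtag counted above 2 times its median, and nuclei with a single such tag took its fish and sort. Scrublet (scanpy 1.11.5, expected rate 0.06) removed 259 nuclei, while the 2 and 5 cells it called were kept, too few for the caller to have worked. Seurat 5.3.0 clustered the data (15 components, resolution 0.8) without 109 listed genes. UMIs were summed per fish and group and tested with edgeR 4.0.16 (quasi-likelihood, TMM, filterByExpr, Benjamini-Hochberg over all genes, threshold 0.05). DESeq2 1.42.0, no filter, other cell filters, thinning, resolutions, left-out sums and a fish block were alternatives. Groups of the same fish pair the sums, whose deviations correlated between 0.256 and 0.914 in the comparisons by BRAFhuman and by tag. With 2 or 3 fish, p-values measure the spread between these sums. In the comparisons of classes, the main fit treated all class by fish sums of at least 20 cells or nuclei as independent and took the spread from all of them together. Those p-values therefore do not rest on the spread between tumor-like sums of different fish alone. Shares across depths came from cells thinned to 5000 UMIs and nuclei thinned to 1000 UMIs. From each other list, up to 3 called genes with the largest change in each direction, the same direction in every fish and at least 50 UMIs were named, and spi1b was added after its value was seen. On simulated data the test called 19.1% of the changed genes for BRAF-positive cells (11867 genes), 42.8% for tumor-like cells (9486), 78.9% for tumor-like nuclei (9912) and 0% for BRAF-positive nuclei (18325). In the same order 36, 71, 116 and 0 changed genes were called with the right sign, beside 9, 26, 12 and 0 false calls. By BRAFhuman it called 1.12% within tumor-like cells and 58.0% within tumor-like nuclei, and by tag 31.4%. A result on a withheld item is not reported here.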

Additional observations from a re-analysis of the deposited data

Results flagged for a closer look

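The difference in dusp6 between BRAF-positive and BRAF-negative members of the tumor-like class had opposite signs in the 2 assays. All fish carried the transgene, and the groups differ in captured BRAFhuman UMIs, so no effect of the transgene was measured. In dissociated cells the log2 fold change of BRAF-positive against BRAF-negative tumor-like cells was -0.81 (SE 0.86), with dusp6 lower in both fish, and in nuclei it was 0.43 (SE 0.82), with dusp6 higher in all 3 fish. Neither value passed its own test, and the difference between the assays, which came from different animals, was not tested.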

How the results depend on the processing

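In BRAF-positive against BRAF-negative cells 3 genes passed, against 7 with DESeq2, 7 with no filter, 7 with the fish as a block, 6 with at least 2 BRAFhuman UMIs and 0 to 0 when a sum was left out. Of all genes, 216 of 12754 rose in the main fit, 848 with DESeq2 and 772 with the block. With no filter 1175 of 24142 rose, and with at least 2 BRAFhuman UMIs 294 of 12539. In tumor-like cells 7 passed, against 2 at resolution 0.4, 2 at resolution 1.6 and 1 to 6 when sums were left out. By GFP tag 0 passed, against 1 with the block and 0 to 2 when a sum was left out. Over all genes, the main counts of calls were 586 for BRAF-positive cells, 1072 for tumor-like cells, 0 by GFP tag, 0 for BRAF-positive nuclei and 4317 for tumor-like nuclei. With all sums kept, the alternatives gave 590 to 2854, 270 to 1652, 0 to 3553, 0 to 642 (642 with the block) and 3255 to 5749 in the same order. With a sum left out they gave 0 to 728, 96 to 1277, 0 to 11228 (11228 without the nuclei tagged GFPpos of fish 3), 0 to 0 and 2837 to 4223. Signs turned within tumor-like cells for dusp4 (-0.19 with the block, -0.34 thinned), etv5a (0.18 with no filter) and etv5b (-0.037 thinned). Signs turned within tumor-like nuclei for dusp4 (-0.013 at 1000 UMIs), etv5a (0.17 with no filter, 0.025 with at least 2 BRAFhuman UMIs) and etv5b (-0.35 thinned), and by GFP tag for il17rd (0.0087 with DESeq2, 0.12 with no filter, 0.040 with the block). With a sum left out, log2 fold changes ran within tumor-like cells from -0.65 to 9.13 for dusp4, from -0.97 to 0.12 for spry4, from -0.21 to 10.74 for etv4 and from -1.23 to 0.86 for etv5a. In BRAF-positive nuclei they ran from -0.17 to 0.65 for il17rd and from -0.20 to 0.70 for etv5a. Within tumor-like nuclei they ran from -0.56 to 1.55 for dusp6, from -0.82 to 1.66 for dusp4, from -1.28 to 1.69 for spry2, from -0.53 to 0.86 for spry4, from -0.66 to 0.15 for etv4 and from -0.18 to 0.22 for etv5a. By GFP tag they ran from -1.28 to 0.10 for dusp6, from -1.82 to 0.53 for dusp4, from -1.66 to 0.72 for spry2, from -0.31 to 0.31 for il17rd and from -1.43 to 0.023 for etv4, and in tumor-like nuclei from -1.72 to 1.42 for il17rd. Of 614 alternatives for single genes, 515 kept sign and side of the threshold. The cause was not tested.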

Other observations

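Of the nuclei, 3566 carried no single fish tag and entered no comparison. Among them, 356 tumor-like nuclei had 333 CPM of dusp6, 77.4 CPM of dusp4, 134 CPM of spry2, 141 CPM of spry4, 181 CPM of etv4, 60.0 CPM of etv5a, 39.5 CPM of etv5b and 31.6 CPM of il17rd. The 343 oocyte-like nuclei without a tag had 84.1 CPM of etv5a, 46.9 CPM of etv5b and 1.27 CPM of spry4.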
